A study of Homo sapiens with 12 samples.

Results

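The genes described here encode antigens and secretory products of the luminal cells of the prostate: FOLH1, ACPP, AZGP1, SPON2, MSMB, PSCA and NPY. These 7 genes were taken by name from the 34643 gene rows of the RNA-Seq table, and 6 of them had enough reads to be tested among 15419 genes. Luminal cells line the ducts of the prostate, respond to androgens and release the proteins of the prostatic fluid. FOLH1 encodes prostate-specific membrane antigen, a folate hydrolase of the cell surface that is a target for imaging and therapy. ACPP encodes prostatic acid phosphatase, AZGP1 encodes zinc-alpha-2-glycoprotein, MSMB encodes beta-microseminoprotein and SPON2 encodes the extracellular matrix protein spondin 2. PSCA encodes prostate stem cell antigen, a small protein anchored to the cell surface, and NPY encodes neuropeptide Y.

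The libraries came from LNCaP, an androgen-responsive cell line from a lymph node metastasis of prostate cancer. All cells carried a lentivirus with an shRNA driven by the U6 promoter of pLKO.1-puro, selected with puromycin, either against TMEFF2 (shTMEFF2) or with a scrambled sequence (shScramble). After 24 h in serum stripped of hormones the cells received 10 nM dihydrotestosterone (DHT+) or ethanol vehicle (DHT-) for another 24 h, which gave the groups shScramble DHT-, shScramble DHT+, shTMEFF2 DHT- and shTMEFF2 DHT+ with 3 libraries each. The 3 libraries of a group were separate treatments and RNA extractions from 2 transductions, and the sources used here do not say which library came from which transduction or which shRNA against TMEFF2 was sequenced. Libraries held 19450866 to 22612046 estimated counts. The cells were sampled in bulk, so fewer cells of a kind and less RNA per cell cannot be told apart.

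Levels are given as CPM, counts scaled to a common library size, after TMM normalization. Differences are log2 fold changes from edgeR's quasi-likelihood test on all 12 libraries, with p-values adjusted by Benjamini-Hochberg over the 15419 genes. Genes were called higher or lower where the change reached 1.5-fold and the adjusted p did not exceed 0.05. The targeted gene was examined first. TMEFF2, a transmembrane protein with follistatin-like and EGF-like domains, was at 77.8, 73.8 and 103 CPM in shScramble DHT- and at 68.6, 39.4 and 81.7 CPM in shTMEFF2 DHT-. With DHT it was at 173, 117 and 169 CPM in shScramble and at 142, 90.1 and 115 CPM in shTMEFF2. Group means were lower in shTMEFF2, but libraries of the 2 lines overlapped at both DHT levels and neither difference was called, with log2 fold changes of -0.43 (SE 0.25, adjusted p = 0.50 by edgeR) without DHT and -0.41 (SE 0.25, adjusted p = 0.30 by edgeR) with DHT. All 6 markers of luminal epithelium (KRT8, KRT18, HOXB13 and KLK3 among them) were above 1 CPM on average. Their sum was lower in shTMEFF2, without overlap of the libraries. Without DHT it was 3901 to 4062 CPM in shScramble and 2075 to 2373 CPM in shTMEFF2. With DHT it was 10873 to 11584 CPM in shScramble and 3226 to 4356 CPM in shTMEFF2. HOXB13 by itself was not called in either line comparison. The basal marker KRT5 and the neuroendocrine marker INSM1 were at 0. Other markers of these lists were not: mean SYP (neuroendocrine) was 2.34 to 3.57 CPM over the groups. Mean KRT14 (basal) was 0.027 CPM in shScramble DHT- and 1.04 CPM in shScramble DHT+.

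The genes differed in level by orders of magnitude, and levels between genes were compared per kilobase of the canonical transcript. In shScramble DHT-, FOLH1 was at 624 CPM per kb and ranked 77 among 26438 genes with a known length. SPON2 followed at 480 CPM per kb and rank 104, and ACPP at 205 CPM per kb and rank 252. AZGP1 was at 11.9, PSCA at 3.31 and MSMB at 1.12 CPM per kb. With DHT in shScramble the order of the leading genes was SPON2 at 585, FOLH1 at 339, ACPP at 97.4 and AZGP1 at 55.4 CPM per kb. NPY had 0 counts in 11 libraries and 0.979 estimated counts in shScramble DHT+ 1, below the floor of 3 counts that corresponds to 0.133 to 0.154 CPM. NPY was therefore not tested, and nothing is said of its response.

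**Figure D1:**
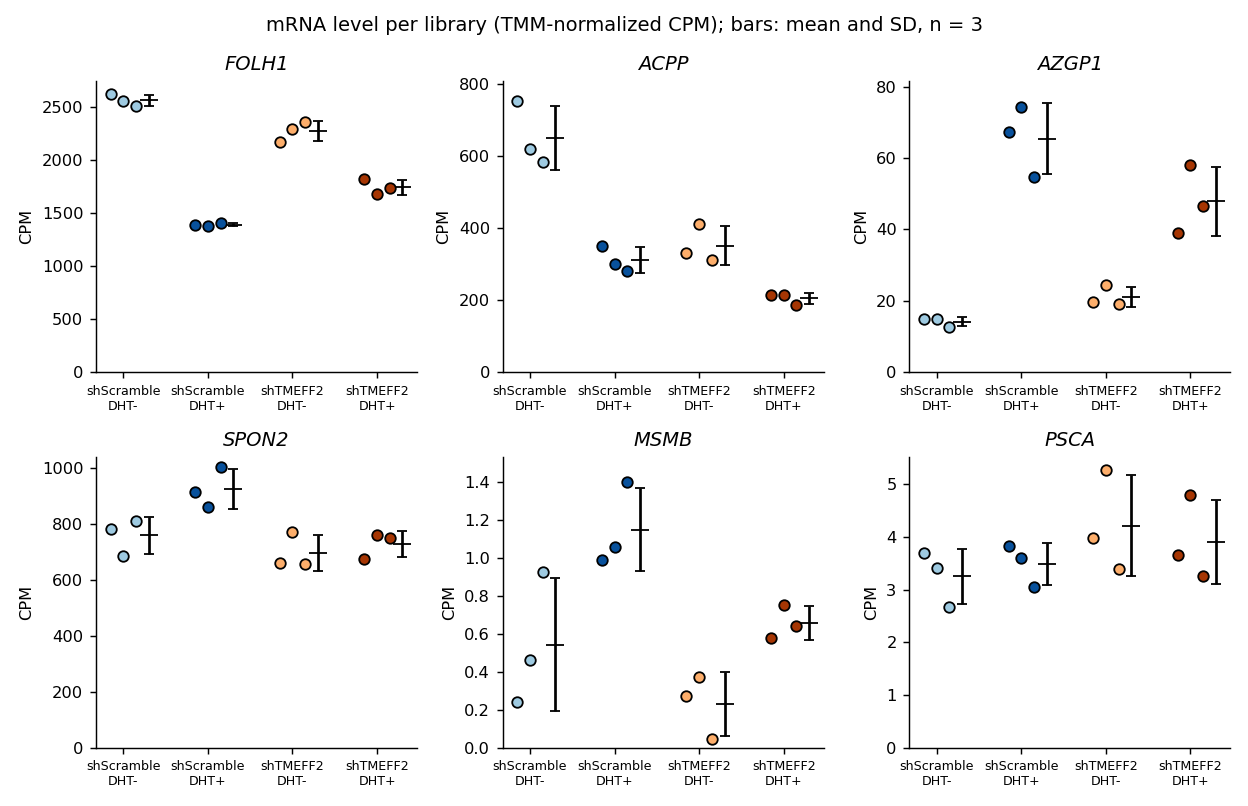
Levels of the 6 tested genes in each library, as TMM-normalized CPM from 0, by group. Points are libraries and the bars beside them are the mean and SD of 3 libraries. Mean FOLH1 is 2566 CPM without and 1392 CPM with DHT in shScramble, and 2277 and 1746 CPM in shTMEFF2, AZGP1 rises in both lines, and the PSCA groups overlap.

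FOLH1 was among the most abundant of the genes in all groups and was lower with DHT. The gene lies on the minus strand of chromosome 11 (GRCh38, 49145092 to 49208638) and its canonical transcript has 19 exons. FOLH1 was at 2624, 2559 and 2515 CPM in shScramble DHT- and at 1393, 1381 and 1403 CPM in shScramble DHT+. It was at 2172, 2299 and 2359 CPM in shTMEFF2 DHT- and at 1821, 1682 and 1735 CPM in shTMEFF2 DHT+. None of the 4 groups overlapped its neighbour in the order shScramble DHT-, shTMEFF2 DHT-, shTMEFF2 DHT+ and shScramble DHT+. The response in shScramble was 1.84-fold lower with DHT, a log2 fold change of -0.88 (SE 0.045, adjusted p = 7.3e-08 by edgeR). In shTMEFF2 the level was 1.30-fold lower, a log2 fold change of -0.38 (SE 0.045, adjusted p = 0.00046 by edgeR), which passed the adjusted p but stayed under the fold limit and was not called. The 2 responses differed by 0.50 on the log2 scale (SE 0.064, adjusted p = 0.00087 by edgeR, interaction). Between the lines, FOLH1 differed by -0.17 without DHT (SE 0.045, adjusted p = 0.096 by edgeR) and by 0.33 with DHT (SE 0.045, adjusted p = 0.00035 by edgeR), shTMEFF2 minus shScramble, both under the fold limit. The line comparison thus had opposite signs without and with DHT. Its near-identical copy FOLH1B had a mean of 4.93 CPM in shScramble DHT- and 2.28 CPM in shScramble DHT+, and reads of the 2 genes can be split uncertainly. With both summed into 1 row the interaction of FOLH1 stayed at 0.50 (adjusted p = 0.00084 by edgeR).

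ACPP was lower with DHT in both lines and lower in shTMEFF2 than in shScramble at both DHT levels. It is on the plus strand of chromosome 3 (132317369 to 132368302) and is named ACP3 in current annotation. ACPP was at 750, 617 and 582 CPM in shScramble DHT- and at 349, 300 and 279 CPM in shScramble DHT+. It was at 330, 411 and 310 CPM in shTMEFF2 DHT- and at 212, 214 and 185 CPM in shTMEFF2 DHT+. The highest group was shScramble DHT- and the lowest shTMEFF2 DHT+, while shTMEFF2 DHT- and shScramble DHT+ overlapped. With DHT the level was 2.10-fold lower in shScramble, a log2 fold change of -1.07 (SE 0.12, adjusted p = 4.6e-05 by edgeR). It was 1.72-fold lower in shTMEFF2, a log2 fold change of -0.78 (SE 0.12, adjusted p = 0.0021 by edgeR). The 2 responses were not shown to differ, with a difference of 0.29 and a 95% interval from -0.087 to 0.67 (adjusted p = 0.44 by edgeR). Between the lines ACPP was 1.85-fold lower in shTMEFF2 without DHT, at -0.89 (SE 0.12, adjusted p = 0.0045 by edgeR), and 1.52-fold lower with DHT, at -0.60 (SE 0.12, adjusted p = 0.0055 by edgeR). The second of these lies at the fold limit of 1.5 and was not called in 5 of 23 other settings, among them the fits without shScramble DHT+ 1 (-0.50), without shTMEFF2 DHT+ 3 (-0.52) and with library size in place of TMM (-0.54), although the adjusted p stayed at 0.030 or below in every setting.

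AZGP1 was higher with DHT in both lines, and the rise was smaller in shTMEFF2. The gene has 4 exons on the minus strand of chromosome 7 (99966720 to 99976042), where a lncRNA on the other strand overlaps it. AZGP1 was at 14.8, 14.8 and 12.6 CPM in shScramble DHT- and at 67.3, 74.3 and 54.8 CPM in shScramble DHT+. It was at 19.6, 24.3 and 19.2 CPM in shTMEFF2 DHT- and at 39.0, 58.0 and 46.6 CPM in shTMEFF2 DHT+. The DHT- and DHT+ libraries were separate within each line. The 2 DHT- groups did not overlap, with shTMEFF2 the higher, while the 2 DHT+ groups overlapped. AZGP1 rose 4.66-fold in shScramble, a log2 fold change of 2.22 (SE 0.16, adjusted p = 9.5e-07 by edgeR). It rose 2.27-fold in shTMEFF2, a log2 fold change of 1.18 (SE 0.15, adjusted p = 0.00085 by edgeR). The response in shTMEFF2 was smaller by 1.04 on the log2 scale, with an interaction of -1.04 (SE 0.22, adjusted p = 0.017 by edgeR). Between the lines AZGP1 was not called, at 0.59 without DHT (SE 0.16, adjusted p = 0.11 by edgeR) and at -0.45 with DHT (SE 0.15, adjusted p = 0.057 by edgeR). The first of these was called with no filter on low counts (0.59, adjusted p = 0.049 by edgeR), and the second without shTMEFF2 DHT+ 2 (-0.60, adjusted p = 0.021 by edgeR).

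AZGP1P1, an AZGP1 pseudogene, can share reads with it. Its mean rose from 1.10 CPM in shScramble DHT- to 5.68 CPM in shScramble DHT+, a log2 fold change of 2.38 (SE 0.28, adjusted p = 4.8e-05 by edgeR). In shTMEFF2 it was at 1.53 CPM without DHT and 2.57 CPM with DHT, with an interaction of -1.63 (SE 0.39, adjusted p = 0.030 by edgeR). With AZGP1 and AZGP1P1 summed, a setting chosen after seeing the data, the interaction was -1.07 (adjusted p = 0.014 by edgeR).

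The upstream sequences of the 2 genes called in both lines in opposite directions are shown next, from RefSeq on GRCh38.p14. Each runs from base 250 to base 51 before the annotated start, on the strand of the gene, and capitals mark the motif found. The window of AZGP1 is chr7:99976082-99976281 on the minus strand, and that of ACPP is chr3:132317157-132317356 on the plus strand.
AZGP1: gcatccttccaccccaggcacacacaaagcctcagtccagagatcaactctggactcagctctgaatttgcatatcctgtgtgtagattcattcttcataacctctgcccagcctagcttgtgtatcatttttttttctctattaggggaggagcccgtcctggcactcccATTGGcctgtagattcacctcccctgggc
ACPP: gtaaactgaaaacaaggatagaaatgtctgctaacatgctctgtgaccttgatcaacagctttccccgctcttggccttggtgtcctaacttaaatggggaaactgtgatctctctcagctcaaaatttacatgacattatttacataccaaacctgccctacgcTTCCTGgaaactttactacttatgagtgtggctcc
The capitals in AZGP1 are the reverse complement of a CCAAT box, 79 bases before the start. Those in ACPP are the reverse complement of CAGGAA, a sequence with the GGAA core that ETS factors bind, 85 bases before the start. Windows of 250 bases were searched on both strands for 6 motifs. CCAAT was in 11240 of all 35116 such windows and CAGGAA in 24.1%. The other motifs were the forkhead motif TGTTTAC (in 2.98% of windows), AGATAA (bound by factors of the GATA family, in 9.17%), TATAAA (the box of that name, in 10.7%) and GGGCGG (the GC box, in 42.6%), and none of the 4 was in the windows of AZGP1 or ACPP. Windows of 4 of the 7 genes were used, since FOLH1 and MSMB had no entry and PSCA was left out of the search. The letters describe these windows and say nothing of factor binding.

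SPON2 was abundant in all groups and changed by less than the fold limit. It lies on the minus strand of chromosome 4 (1166932 to 1208962), with an antisense lncRNA on the other strand. SPON2 was at 782, 683 and 810 CPM in shScramble DHT- and at 912, 858 and 1002 CPM in shScramble DHT+. It was at 661, 769 and 658 CPM in shTMEFF2 DHT- and at 674, 758 and 749 CPM in shTMEFF2 DHT+. The shScramble DHT+ libraries were above all others, and the remaining groups overlapped. The log2 fold change with DHT was 0.28 in shScramble (SE 0.085, adjusted p = 0.026 by edgeR) and 0.06 in shTMEFF2 (SE 0.085, adjusted p = 0.69 by edgeR). The difference of the responses was -0.22, with a 95% interval from -0.48 to 0.040 (adjusted p = 0.38 by edgeR). Between the lines SPON2 differed by -0.12 without DHT (95% interval -0.31 to 0.060, adjusted p = 0.59 by edgeR) and by -0.35 with DHT (SE 0.085, adjusted p = 0.015 by edgeR).

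MSMB was close to the limit of detection, with 0.952 to 28.0 estimated counts per library. The gene is on the minus strand of chromosome 10 (46033307 to 46048180). MSMB was at 0.242, 0.461 and 0.928 CPM in shScramble DHT- and at 0.991, 1.06 and 1.40 CPM in shScramble DHT+. It was at 0.273, 0.374 and 0.0442 CPM in shTMEFF2 DHT- and at 0.580, 0.753 and 0.641 CPM in shTMEFF2 DHT+. Within each line the DHT+ libraries were above the DHT- libraries, but shTMEFF2 DHT+ and shScramble DHT- overlapped. The log2 fold changes with DHT were 1.11 in shScramble (SE 0.50, adjusted p = 0.12 by edgeR) and 1.48 in shTMEFF2 (SE 0.57, adjusted p = 0.11 by edgeR), neither of them called. Without shScramble DHT- 3 the value in shScramble was 1.76 (adjusted p = 0.039 by edgeR) and was called. Neither line comparison was called, at -1.20 without DHT (SE 0.59, adjusted p = 0.40 by edgeR) and -0.83 with DHT (SE 0.48, adjusted p = 0.29 by edgeR).

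PSCA was low in all groups and no comparison was called. It lies on the plus strand of chromosome 8 (142670308 to 142682725), and JRK overlaps it on the other strand. PSCA was at 3.69, 3.41 and 2.68 CPM in shScramble DHT- and at 3.82, 3.60 and 3.05 CPM in shScramble DHT+. It was at 3.99, 5.27 and 3.40 CPM in shTMEFF2 DHT- and at 3.67, 4.79 and 3.26 CPM in shTMEFF2 DHT+. All neighbouring groups in the order of means overlapped. The log2 fold change with DHT was 0.10 in shScramble (95% interval -0.38 to 0.58) and -0.11 in shTMEFF2 (95% interval -0.59 to 0.36). Shifts between the lines were 0.37 without DHT (95% interval -0.11 to 0.85) and 0.16 with DHT (95% interval -0.32 to 0.63).

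**Figure D2:**
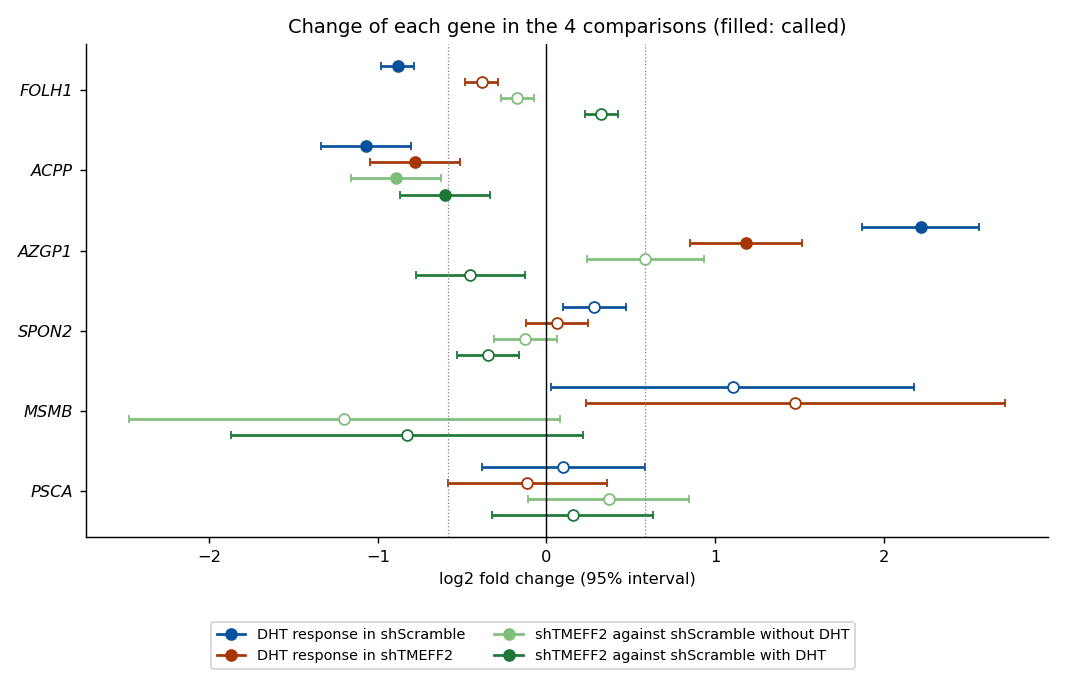
Log2 fold changes of the 6 tested genes with 95% intervals in 4 comparisons, from edgeR. Filled points were called, dotted lines mark a fold of 1.5, and shTMEFF2 is compared with shScramble. ACPP is filled in all 4 comparisons, at -1.07, -0.78, -0.89 and -0.60, AZGP1 in both DHT responses, at 2.22 and 1.18, and FOLH1 only for DHT in shScramble, at -0.88.

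Counted together, the 6 tested genes had no common direction. With DHT in shScramble 1 of 6 was called higher (AZGP1) and 2 lower (FOLH1 and ACPP), while 5.45% of all genes were called higher and 6.45% lower. In shTMEFF2 1 was called higher (AZGP1) and 1 lower (ACPP), against 3.28% and 1.6% of all genes. Between the lines 0 of 6 were called higher at either DHT level by edgeR, and ACPP alone was called lower at each. The background was 0.298% higher and 0.272% lower without DHT, and 3.03% higher and 3.74% lower with DHT. At an unadjusted p under 0.05, AZGP1 was higher without DHT and FOLH1 with DHT in shTMEFF2, and by DESeq2 the count called higher was also 0 at each level. The responses of the lines differed for 1 gene upward (FOLH1) and 1 downward (AZGP1) of 6, against 1.65% and 3.29% of all genes. The median log2 fold change of the 6 genes was 0.19 with DHT in shScramble, -0.02 with DHT in shTMEFF2, -0.15 between the lines without DHT and -0.40 with DHT. Medians over all 15419 genes lay between -0.02 and 0.01 in the same comparisons. These comparisons share groups of libraries and are not independent of one another.

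Of 27 other luminal prostate genes, 26 were tested. The shares called over all genes, given above for each comparison, apply to the counts of this and the next 2 lists. With DHT in shScramble 11 were called higher and 1 lower, and the highest were TRPM8, a cation channel, at 3.02, TMPRSS2, a membrane serine protease, at 2.97 and SLC45A3, the transporter known as prostein, at 2.94. In shTMEFF2 4 were called higher, among them TRPM8 at 2.68 and SLC45A3 at 1.55, and 0 lower by edgeR, DESeq2 and limma-voom, although 7 were lower at an unadjusted p under 0.05. Between the lines with DHT 12 were called lower, among them TMPRSS2 at -2.22 (-3.02 without shTMEFF2 DHT+ 3 and -1.76 without shScramble DHT+ 3, called in both) and PMEPA1 at -2.06, and 0 higher by edgeR, DESeq2 and limma-voom, with 1 higher at an unadjusted p under 0.05. Without DHT 3 were called lower, including AMACR at -0.61, and 0 higher by edgeR and limma-voom (1 by DESeq2, and 2 at an unadjusted p under 0.05). The AMACR value kept its call in 10 of 23 other settings. The responses of the lines differed for 1 gene upward and for 7 downward, with PMEPA1 at -1.94, KRT19 at -1.63 and KRT8 at -1.49, and with the replicate block the upward count was 2. The median with DHT was 0.39 in shScramble and 0.03 in shTMEFF2.

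Of 25 other secreted products of the prostate, 17 were tested. With DHT in shScramble 8 were called higher and 3 lower, among them the orosomucoid genes ORM1 and ORM2, which encode acute-phase proteins, and the kallikrein KLK2 at 2.51. ORM1 went from 1.86 to 5.18 counts per library in shScramble DHT- to 164 to 217 counts in shScramble DHT+. ORM2 had at most 1.99 counts in shScramble DHT-, under the floor of 3, and 124 to 143 counts in shScramble DHT+. In shTMEFF2, ORM2 had at most 1.96 counts without DHT and 1.10 to 24.9 counts with DHT. Only in shScramble DHT+ were all ORM2 libraries above the floor, so its fold changes in all comparisons are rough and rest on that group. Lower were the phospholipase gene PLA2G2A at -2.30 (SE 0.16, adjusted p = 6.5e-07 by edgeR), the relaxin gene RLN2 at -0.77 (SE 0.11, adjusted p = 0.00032 by edgeR) and 1 more. In shTMEFF2 5 were called higher, ORM1, ORM2 and, at 5 CPM or more, KLK2 at 2.80, KLK3 (prostate-specific antigen) at 2.45 and KLK4 at 1.28, and 1 lower, PLA2G2A at -1.24. With the replicate block the lower count was 2. Between the lines without DHT 0 were called higher by edgeR and limma-voom (1 by DESeq2, and 4 at an unadjusted p under 0.05) and 4 lower, with KLK2 at -2.95, KLK3 at -2.43 and KLK4 at -1.03. With DHT 7 were called lower, with ORM1 at -3.30, ORM2 at -3.29 and KLK2 at -2.65, and 1 higher, PLA2G2A at 1.48. The responses differed for 1 gene upward, PLA2G2A at 1.05, and for 4 downward, among them ORM1 at -3.09, AGR2 at -1.31 and B2M at -0.69. The ORM1 and ORM2 genes are near-identical, so reads may be split between them.

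**Figure D3:**
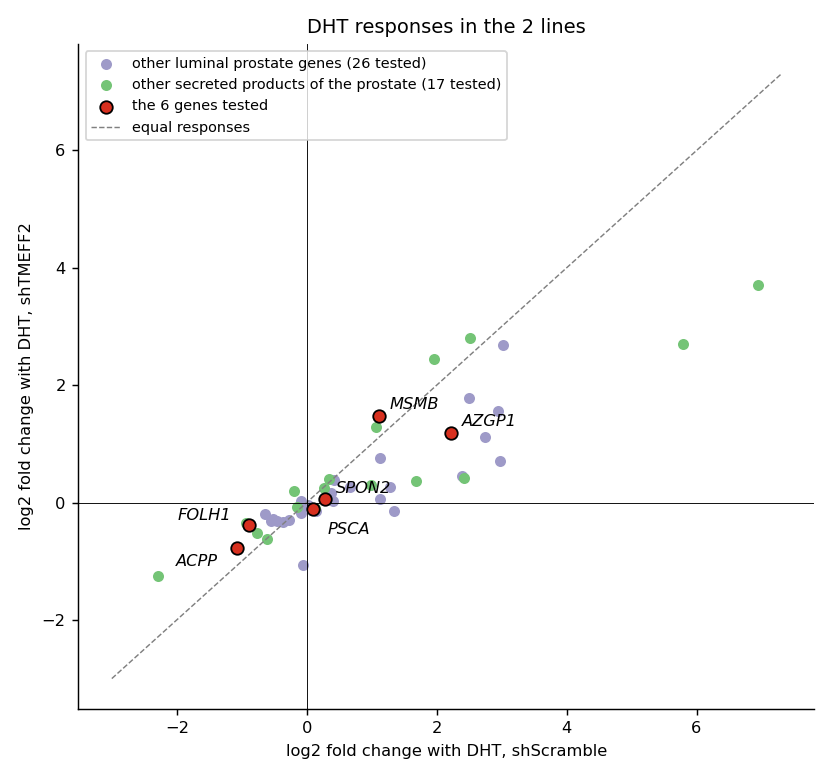
Log2 fold change with DHT in shScramble (x axis) and shTMEFF2 (y axis) for the 6 tested genes and for 2 lists of other prostate genes, from edgeR. Each point is a gene and the dashed line marks equal responses. AZGP1, at 2.22 and 1.18, lies below the line, and FOLH1, at -0.88 and -0.38, lies above it.

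Of 25 family and receptor genes (relatives or copies of FOLH1, ACPP, AZGP1, MSMB, NPY, PSCA and SPON2, and the receptors of neuropeptide Y), 13 were tested. With DHT in shScramble 1 was called higher, AZGP1P1, and 2 lower, FOLH1B at -1.11 (SE 0.20, adjusted p = 0.0014 by edgeR) and NAALAD2, a peptidase related to FOLH1, at -1.35 (SE 0.22, adjusted p = 0.00052 by edgeR). In shTMEFF2 0 of the 13 were called higher and 0 lower with DHT by edgeR, while 2 were higher and 2 lower at an unadjusted p under 0.05, and 1 was called lower by limma-voom and with the replicate block. Over all genes 5.45% were called higher and 6.45% lower with DHT in shScramble, and 3.28% and 1.6% in shTMEFF2. With 13 genes, counts this small are near those shares. AZGP1P1 was lower in shTMEFF2 than in shScramble with DHT, at -1.15 (SE 0.25, adjusted p = 0.0087 by edgeR).

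Most markers of other cell types were low. The 4 basal markers summed to 0.197 to 0.387 CPM in shScramble DHT-, 1.17 to 1.89 CPM in shScramble DHT+, 0.305 to 0.689 CPM in shTMEFF2 DHT- and 0.234 to 0.532 CPM in shTMEFF2 DHT+, with KRT5 at 0. The 4 fibroblast markers summed to 19.3 to 20.1 CPM in shScramble DHT- and 12.3 to 13.2 CPM in shScramble DHT+, and to 22.0 to 31.7 CPM in shTMEFF2 DHT- and 15.4 to 17.96 CPM in shTMEFF2 DHT+, with 1 of the 4 above 1 CPM. The basal sum was higher with DHT in shScramble. The fibroblast sum was lower with DHT in both lines and higher in shTMEFF2 than in shScramble at both DHT levels, without overlap of the libraries. It was mostly the single gene COL1A1, with group means from 12.3 CPM in shScramble DHT+ to 25.3 CPM in shTMEFF2 DHT-. The 3 leukocyte markers summed to 7.83 to 9.68 CPM in shScramble DHT- and 11.2 to 12.6 CPM in shTMEFF2 DHT-, without overlap, and to 9.35 to 12.05 CPM in shScramble DHT+ and 11.0 to 12.1 CPM in shTMEFF2 DHT+, which overlapped. The 4 neuroendocrine markers summed to 1.97 to 2.98 CPM in shScramble DHT- and 3.14 to 3.91 CPM in shScramble DHT+. In shTMEFF2 they summed to 2.16 to 2.68 CPM without DHT and 2.32 to 2.75 CPM with DHT. Of these 4, only SYP was above 1 CPM. The part of the markers of other cell types in the results was not tested.

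For each tested gene the 3 genes with the most similar pattern were found by Pearson's r of log2 CPM over the 12 libraries among 11156 genes with a mean of at least 5 CPM. The closest to FOLH1 were PRKD1 (r = 0.99), TMEM38B (0.98) and MANEA (0.98). ACPP was closest to the zinc transporter gene SLC30A4 (0.98), SDAD1P1 (0.97) and VPS54 (0.96). AZGP1 was close to MAGEA1 (0.98) and GOT2 (0.98), and SPON2 to FGFRL1 (0.95), SLC35E1 (0.95) and SDF2L1 (0.93). The values for PSCA were 0.91 (ATOX1), 0.89 (TAX1BP3) and 0.88 (TRAPPC1), and those for MSMB 0.89 (TMEM18), 0.88 (TTI2) and 0.88 (CYB5D1). The points share libraries and the 4 group means, so the coefficients describe these libraries.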

How the data were processed

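RNA was sequenced from 12 libraries of LNCaP cells as 75 bp paired-end reads. The authors removed contaminant reads, trimmed with Trimmomatic and pseudoaligned to the GRCh38 transcriptome with kallisto 0.42.3, and deposited estimated counts per gene. The counts are scaled by transcript length and library size, so a change of transcript use does not by itself change them. Whether counting used strand is not given in the sources used here. The table has 34643 gene rows, 8918 of them at 0 in all columns, and 24 columns, 2 per library, whose names differ by a suffix. The 2 columns of a library differed less (median chi-square per gene 1.06 to 1.17) than 2 replicates of a group (2.12 to 2.72) and were summed to 1 replicate.

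Sums were rounded and tested in R 4.3.3 with edgeR 4.0.16 (TMM, filterByExpr with minimum count 10 and minimum total count 15, quasi-likelihood test, all 12 libraries with 1 coefficient per group). Calls needed a 1.5-fold change and an adjusted p not above 0.05, and interactions the adjusted p alone. Intervals are 95% from the fit and cover the spread between these libraries, which share transductions. The common biological coefficient of variation was 0.131.

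The genes, lists and alternatives were chosen with earlier results of these data known. Named genes are the 7 members, TMEFF2, 3 genes of closest pattern per member and, per list and comparison, up to 3 highest and 3 lowest called genes with at least 5 CPM. The copies FOLH1B and AZGP1P1 were named as near-identical genes. A few genes that the rule names are left unreported. Alternatives were DESeq2 1.42.0, limma-voom (limma 3.58.1), other filters, library size only, a replicate block, the libraries of a comparison alone, each library left out, summed copies, a prior count of 0.5 and, added after seeing the data, 1 column per library and AZGP1 summed with AZGP1P1. Within each line libraries with the same number deviated together (correlations 0.26, 0.21 and 0.26 in shScramble, and 0.30, 0.18 and 0.28 in shTMEFF2). This pairing was read from the data and not from the labels. Only the replicate block used it, and the main tests took the libraries as unpaired. Between lines the correlations of libraries with the same number ranged from -0.048 to 0.21. Positions and lengths are from GENCODE on GRCh38. The scripts were tested on simulated data.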

Additional observations from a re-analysis of the deposited data

Results flagged for a closer look

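The response to DHT differed between shTMEFF2 and shScramble, by edgeR's interaction test, for 12 of the antigens, copies and list or marker genes named above. All values are the log2 response in shTMEFF2 minus that in shScramble. Among the antigens and secretory products these were FOLH1 (0.50) and AZGP1 (-1.04), and the pseudogene AZGP1P1 had -1.63. For FOLH1 the difference stands for a smaller decrease with DHT in shTMEFF2, and for AZGP1 for a smaller rise. Among the other luminal genes they were KRT8 (-1.49), KRT18 (-1.07), KRT19 (-1.63), PMEPA1 (-1.94) and SLC45A3 (-1.38). Among the other secreted products they were AGR2 (-1.31), B2M (-0.69), ORM1 (-3.09) and PLA2G2A (1.05). ORM1 had at most 5.18 counts per library in shScramble DHT- and 5.34 in shTMEFF2 DHT-. A difference of opposite sign for FOLH1 and AZGP1 goes with a response of smaller size in shTMEFF2 for both. TMEFF2 mRNA itself was not called lower in shTMEFF2. The calls of AGR2, KRT19, ORM1 and AZGP1P1 were lost when single libraries of any of several groups were left out.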

How the results depend on the processing

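The DHT responses of ACPP and AZGP1 in both lines, the fall of FOLH1 in shScramble, the difference of ACPP between lines without DHT and the interactions of FOLH1 and AZGP1 kept their direction and call in every setting tried. The interaction of FOLH1 ranged from 0.47 to 0.57 (adjusted p at most 0.0038) and that of AZGP1 from -1.19 to -0.91 (adjusted p at most 0.048). The replicate block changed no call of the 6 tested genes, with 0.50 for FOLH1 and -1.03 for AZGP1 in the interaction.

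Among the 6 genes, the count called lower between the lines with DHT was 1 and became 0 with a filter at a mean above 5 CPM, with library size only or with the first column of each library, in which ACPP was at -0.57, -0.54 and -0.57, and ranged from 0 to 2 with libraries left out. The count called higher between the lines without DHT was 0 and became 1 with no filter (AZGP1). The count called higher with DHT in shScramble was 1 and ranged from 1 to 2 with libraries left out (MSMB, without shScramble DHT- 3).

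Signs turned only for values that were not called. PSCA ranged with libraries left out from -0.019 to 0.20 for DHT in shScramble, from -0.28 to 0.080 for DHT in shTMEFF2 (0.012 without shTMEFF2 DHT+ 3) and from -0.0071 to 0.28 between the lines with DHT. The MSMB interaction was -0.77 with the second column only and -0.27 to 0.83 with libraries left out (-0.094 without shTMEFF2 DHT- 3). The TMEFF2 interaction was -0.053 with the first column only and -0.23 to 0.25 with libraries left out (among them -0.14, -0.13 and -0.16). The cause was not tested.

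Counts over the lists moved by more than 1.5 times in some settings, with ranges, for the other luminal genes, of 0 to 2 (reported 1) upward in the interaction, 0 to 3 (1) lower with DHT in shScramble and 1 to 3 (3) lower between the lines without DHT. For the secreted products they were 5 to 8 (8) higher with DHT in shScramble, 3 to 5 (5) higher and 1 to 2 (1) lower in shTMEFF2, 1 to 4 (4) downward in the interaction, and 4 to 8 (7) lower and 1 to 2 (1) higher between the lines with DHT. Of the other interactions, AGR2 kept its call in 12 of 22 settings, KRT19 in 14 of 21, ORM1 in 15 of 21 and AZGP1P1 in 11 of 20, with adjusted p up to 0.091, 0.18, 0.17 and 0.18. Over all genes, calls between the lines without DHT were 46 higher and 42 lower, and 14 to 98 and 17 to 84 in the alternatives. Counts were few for MSMB and nearly absent for NPY, and the part of sequencing depth in this was not tested.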
